A study of Homo sapiens with 8 samples.

Results

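The genes described here are the cytosolic ribosomal protein genes, which code for the proteins of the ribosomes that translate nuclear messages. They were taken by symbol from a gene table of RNA sequencing: RPL or RPS followed by a number, with or without the endings A, AL, L, L1 or X, plus RPLP0, RPLP1, RPLP2 and RPSA. The rule found 85 of 18902 analysed features. It uses symbols and no measured value, but the gene set was chosen with earlier results of these data known. Of the 85 genes, 31 code for small-subunit proteins and 46 for large-subunit proteins, and 8 are paralog forms whose symbol adds L or L1 to that of a parent gene.

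The RNA came from MHCC-97H and MHCC-97L, human hepatocellular carcinoma cell lines named for a high and a low metastatic potential and grown in DMEM with fetal calf serum. In 2 groups, MHCC-97H Flag-OGT and MHCC-97L Flag-OGT, the cells stably carried full-length human O-GlcNAc transferase (OGT) with a Flag tag at its C-terminus, delivered in a lentiviral vector and kept by drug selection. OGT is the enzyme that places N-acetylglucosamine on proteins of the nucleus and the cytosol. The other 2 groups, MHCC-97H control and MHCC-97L control, carry no genotype label, and the sources used here do not say whether they held an empty vector. Each group had 2 libraries. No label says that they came from separate cultures or clones, so a p-value below speaks only of the spread of these libraries, which may be technical.

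Every ribosome holds a single copy of nearly all of these proteins, with the acidic stalk proteins RPLP1 and RPLP2 as the exception, and cells therefore make them in matched amounts. Their messages typically begin with a cytosine followed by a run of pyrimidines, the terminal oligopyrimidine (TOP) motif, through which the kinase mTOR and the RNA-binding protein LARP1 set their translation. Paralog forms differ from this pattern: RPL3L is known from heart and skeletal muscle, RPL10L and RPL39L from testis, and RPS27L as a p53-responsive gene.

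The listed start sites show which members have that motif at the annotated base, which can miss a motif that lies next to it. RefSeq promoter windows on GRCh38.p14 were present for 68 of the 85 genes. A TOP-type start was counted where the listed start was a C followed by at least 4 bases that were each C or T, read on the sense strand only. It was present in 47 of the 68 genes (69.1%), against 1404 of 27305 genes in the whole promoter table (5.14%). A gene with several listed starts, as for 11 of the 68, was counted where any of them met the rule; 6 of those 11 were counted, none with all its starts meeting it. Among the paralog forms with a window, 1 of 6 had such a start (16.7%), and that was RPL22L1. The windows below run from 10 bases before the listed start to 20 bases from it, 5′ to 3′ on the gene's own strand. Capitals mark the pyrimidine run of a TOP-type start, and a window with no capitals has no TOP-type start at the listed base. The first 3 belong to genes with some of the largest changes, the next 4 to genes that were lower or that differed between the lines, and the last 4 to paralog forms and to the parent RPL36A.
RPL29, chr3:51995876-51995905, minus strand: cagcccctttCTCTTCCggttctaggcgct
RPS6, chr9:19380217-19380246, minus strand: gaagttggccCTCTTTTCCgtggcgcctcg
RPSA, chr3:39406710-39406739, plus strand: tgccgcctgtCTTTTCCgtgctacctgcag
RPS27, chr1:153990752-153990781, plus strand: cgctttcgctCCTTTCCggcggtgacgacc
RPL22, chr1:6199576-6199605, minus strand: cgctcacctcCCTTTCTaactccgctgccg
RPS24, chr10:78033853-78033882, plus strand: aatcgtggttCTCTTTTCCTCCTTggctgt
RPS26, chr12:56041908-56041937, plus strand: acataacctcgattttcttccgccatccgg
RPL22L1, chr3:170870176-170870205, minus strand: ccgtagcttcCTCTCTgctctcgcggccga
RPL7L1, chr6:42879606-42879635, plus strand: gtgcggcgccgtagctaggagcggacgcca
RPL36A, chrX:101391001-101391030, plus strand: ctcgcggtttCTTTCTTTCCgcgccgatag
RPL36AL, chr14:49620607-49620636, minus strand: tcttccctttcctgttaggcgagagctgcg
RPL29, RPS6 and RPSA share the start with RPS27 and RPL22, whose levels were lower in MHCC-97H Flag-OGT cells. Each of these 11 genes has 1 listed start, and the starts used in these cells were not measured. The rule depends on the exact listed base. In RPL36AL a pyrimidine run spans the listed start, and in RPS26 one lies just past it, yet neither was counted. A gene without a TOP-type start by this rule may thus still carry the motif.

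Levels are deposited FPKM values, a fragment count scaled by transcript length and by sequenced fragments, and the sequencing depth behind them is unknown. OGT itself had 59.0 and 58.4 FPKM in MHCC-97H Flag-OGT cells, against 32.5 and 34.2 in their controls. It had 51.0 and 54.5 FPKM in MHCC-97L Flag-OGT cells, against 45.7 and 43.9 in theirs. The gap in MHCC-97L depends on library scaling. Median-of-ratios scaling divides each library by its own factor. These factors were 1.13 and 1.16 for MHCC-97L Flag-OGT libraries and 0.99 and 0.98 for their controls. Divided by them, the OGT values of these groups overlap, while those of MHCC-97H stay apart. The libraries labelled Flag-OGT also differed from controls in other genes. The summed FPKM of 10 hepatocyte markers was 54.8 to 56.7 in MHCC-97H Flag-OGT cells, against 5376 to 5618 in their controls, and 23.6 to 35.5 in MHCC-97L Flag-OGT cells, against 6291 to 6330 in theirs. Keratin KRT8 had 5.62 to 12.0 FPKM over the 4 Flag-OGT libraries and 3735 to 4140.4 FPKM over the 4 controls, and the hepatocyte regulator HNF4A had 0.01 to 0.04 and 13.4 to 14.6 FPKM. TTR was listed at 0 in all 4 Flag-OGT libraries, and GPC3 went the other way, with 4.0 to 29.7 FPKM there and 0 in the controls. Of 8 tested hepatocyte markers, 6 fell and 1 rose in MHCC-97H, and 7 fell and 1 rose in MHCC-97L. Summed fibroblast markers were 14.6 to 20.9 FPKM in the 4 Flag-OGT libraries and 4.65 to 12.2 FPKM in the 4 controls, with FAP at 0 in all 8. Of 3 tested fibroblast markers, ACTA2 and COL1A1 rose and LUM fell in both lines. LUM had 0 to 0.08 FPKM in the 4 Flag-OGT libraries and 4.0 to 11.5 FPKM in the 4 controls. Summed leukocyte markers were 2.85 to 8.74 and 69.1 to 82.5 FPKM, most of it CD68 in the controls, and endothelial markers 0.66 to 1.57 and 33.5 to 46.4 FPKM. Of 3 tested leukocyte markers, CD68 and ITGAM fell in both lines. The third, LYZ, rose in MHCC-97L and was not called in MHCC-97H. All 3 tested endothelial markers, ESAM, KDR and PECAM1, fell in both lines. Every comparison of Flag-OGT with control below rests on libraries that differ in this way, while the comparison of the 2 control groups does not use them, and the part of these differences in the results was not tested.

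Ribosomal protein messages took up a larger part of the summed FPKM in the Flag-OGT libraries of both lines. The 85 genes held 28.6% and 28.4% in MHCC-97H Flag-OGT cells, against 14.8% and 15.0% in their controls, and 31.23% and 31.20% in MHCC-97L Flag-OGT cells, against 15.07% and 15.08% in theirs. The SD between the 2 libraries of a group was at most 0.115 percentage points, and the groups did not overlap. Of the 100 features with the highest FPKM in a library, 66 and 64 were ribosomal protein genes in MHCC-97H Flag-OGT cells, against 42 and 41 in controls, and 66 in both MHCC-97L Flag-OGT libraries, against 47 and 48 in controls. In a bulk sample, fewer cells of a type and less RNA per cell cannot be told apart.

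**Figure D1:**
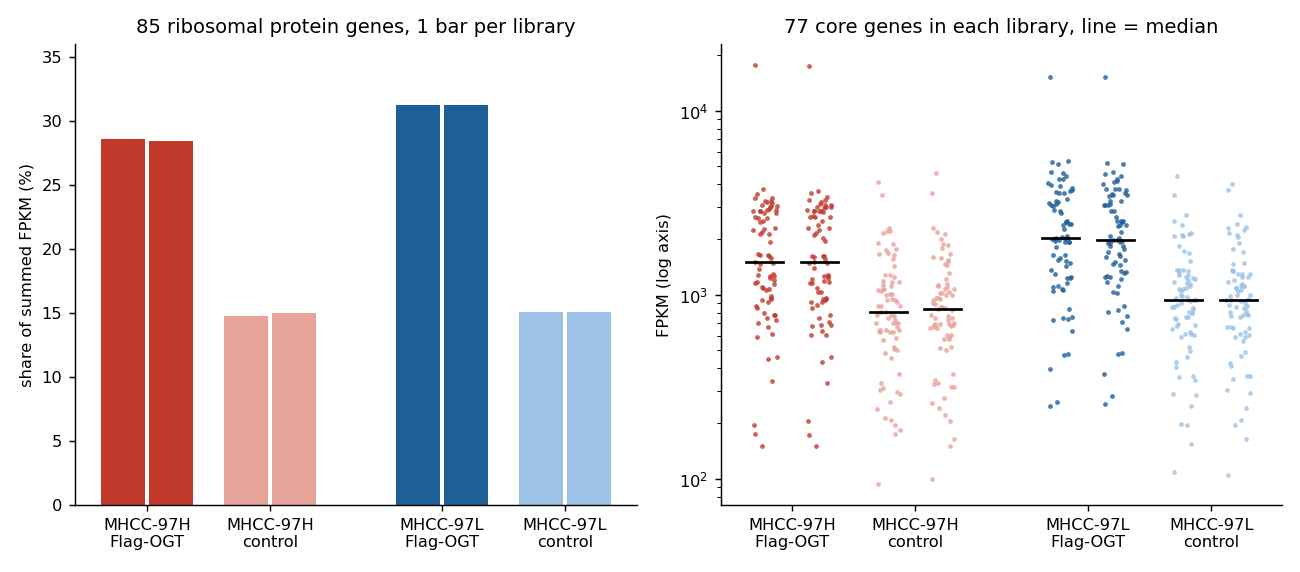
Left, share of the summed FPKM of each library (%) held by the 85 ribosomal protein genes, 1 bar per library. Right, FPKM (log axis) of the 77 genes that are not paralog forms, 1 point per gene and library, with the median as a line. The bars stand at 28.4% to 31.2% in Flag-OGT libraries and at 14.8% to 15.1% in controls.

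Single members spanned a wide range in every library. The median of the 77 genes that are not paralog forms was 1510.2 and 1502 FPKM in MHCC-97H Flag-OGT cells, against 806 and 838 FPKM in controls. It was 2030.2 and 1997 FPKM in MHCC-97L Flag-OGT cells, against 932 and 936 FPKM in controls. RPS2, a small-subunit protein near the messenger RNA entry channel, had the highest mean over all libraries and the highest value in each Flag-OGT library, followed in mean level by the zinc-finger protein RPS27 and the large-subunit protein RPL35. At the low end stood RPS23, a decoding-centre protein, with 93.3 to 254 FPKM over the 8 libraries, and in MHCC-97H Flag-OGT cells RPL22, with 151 FPKM in both. The spread among the 77 genes, as the SD of log2(FPKM + 1), was 1.12 and 1.12 in MHCC-97H Flag-OGT cells and 1.05 and 1.03 in controls, and 1.06 and 1.03 in MHCC-97L Flag-OGT cells and 1.01 and 1.00 in controls. As a description over these 77 genes, the order of levels was alike between the lines, with Spearman's rho of 0.91 between the Flag-OGT groups and 0.94 between the controls. It was less alike between Flag-OGT and control cells of a line, at 0.703 in MHCC-97H and 0.699 in MHCC-97L. All these values share the table's normalization and gene lengths.

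Sequence copies touch these levels. The human genome holds many processed pseudogenes of ribosomal protein genes, and GENCODE release 29 lists 1145 for 77 of the 85 genes, with a median of 8 per gene. RPL23A has 91 listed and RPSA 74. The sources used here do not say how fragments shared with such copies were counted, so the split of reads between a gene and its copies is uncertain for all members with copies. The same holds for any fragments that a paralog form shares with its parent, so the percentages and ratios of paralogs to parents below carry this limit too.

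In MHCC-97H, the comparison asks which ribosomal protein messages differed where Flag-OGT was expressed. Most were higher: 70 of the 83 tested genes rose and 9 fell (limma on log2(FPKM + 1), Benjamini-Hochberg adjusted p under 0.05). Among all 13553 tested features 48.2% rose and 36.3% fell. With a minimum of 2-fold, 36 rose, against a background of 22.3%, and 0 fell, against 16.0%. The libraries did not overlap in 70 higher and 10 lower members, against 52.0% and 39.5% of all tested features. The median log2 change of the members was 0.85, beside 0.15 over all tested features. RPL3L and RPL10L had a mean under 0.5 FPKM and were not tested. By subunit, 26 of 31 small-subunit genes rose and 3 fell, with a median log2 change of 0.91, and 41 of 46 large-subunit genes rose and 3 fell, with a median of 0.89. Of the 6 tested paralog forms, 3 rose and 3 fell.

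RPL29, a large-subunit protein that is not essential in mice, had 3554 and 3578 FPKM in MHCC-97H Flag-OGT cells, against 625 and 685 FPKM in controls. Both Flag-OGT libraries lay far above both controls, a log2 change of 2.44 ± 0.05 (SE; limma, adjusted p = 3e-11). RPS2 had 17757 and 17552 FPKM in Flag-OGT cells, against 4103 and 3578 FPKM in controls. The groups did not overlap, and the log2 change was 2.20 ± 0.06 (limma, adjusted p = 3.3e-10). RPS6, the small-subunit protein phosphorylated by S6 kinases downstream of mTOR, had 2204 and 2177 FPKM in Flag-OGT cells, against 481 and 511 FPKM in controls. That is a log2 change of 2.14 ± 0.06 (limma, adjusted p = 1.3e-10), again with no overlap. RPSA, a small-subunit protein that also serves as a laminin receptor precursor, had 3152 and 3021 FPKM in Flag-OGT cells, against 731 and 696 FPKM in controls. RPL15, a large-subunit protein, had 1474 and 1502 FPKM in Flag-OGT cells, against 312 and 332 FPKM in controls. Their log2 changes were 2.11 and 2.20, each with a SE of 0.05 (limma, adjusted p = 5e-11 and 3.5e-11). RPL22L1, the paralog of RPL22, completes the 6 largest changes and is described with its parent below.

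The 9 genes that fell in MHCC-97H Flag-OGT cells were RPL22, RPS27, RPL30, RPS27L, RPL7, RPS20, RPS26, RPL39L and RPL36AL. RPL22, a large-subunit protein that binds a viral small RNA and is needed for alpha-beta T-cell development in mice, had 151 FPKM in both Flag-OGT libraries, against 215 and 243 FPKM in controls. It fell by 0.59 ± 0.06 on the log2 scale (limma, adjusted p = 9.1e-06) with no overlap. RPS27 had 2632 and 2686 FPKM in Flag-OGT cells, against 3511 and 4572 FPKM in controls. The controls of RPS27 differed from each other more than those of any other tested member, and it fell by 0.59 ± 0.12 (limma, adjusted p = 0.00085). RPL30, a large-subunit protein that also binds the selenocysteine insertion element, had 1265 and 1266 FPKM in Flag-OGT cells, against 1895 and 1862 FPKM in controls, and fell by 0.57 ± 0.04 (limma, adjusted p = 6.4e-07). RPS20 (780.3 and 714 FPKM in Flag-OGT cells, 914 and 993 FPKM in controls), RPL7 (703 and 679 FPKM, against 865 and 893 FPKM) and RPS26 (196 and 207 FPKM, against 241 and 259 FPKM) fell by 0.35, 0.35 and 0.31 on the log2 scale. RPS26 is mutated in some families with Diamond-Blackfan anaemia. Its call was lost when libraries were rescaled to a common sum over the genes that are not members, where its log2 change was -0.12.

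The remaining 4 tested genes were not called in MHCC-97H. They were RPS24, RPL36A, RPL39 and RPS27A, a fusion gene of ubiquitin and a small-subunit protein. These 4, like other members named for a small count, were singled out after their values were seen. RPS27A had 449 and 434 FPKM in MHCC-97H Flag-OGT cells, against 456 and 503 FPKM in controls, and 473 and 475 FPKM in MHCC-97L Flag-OGT cells, against 459 and 465 FPKM in controls. Its log2 changes were -0.12 ± 0.05 and 0.04 ± 0.05 (limma, adjusted p = 0.066 and 0.54), and RPS27A was the one tested member called in neither line. The value in MHCC-97L turned to -0.08 after rescaling to a common sum and to -0.17 with median-of-ratios scaling.

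In MHCC-97L, 77 of the 83 tested genes rose and 3 fell in Flag-OGT cells, against 50.1% and 34.7% of all tested features. With a minimum of 2-fold, 46 rose, against a background of 18.6%, and 1 fell, against 16.1%. The libraries did not overlap in 78 higher and 3 lower members, against 53.8% and 38.3%. The median log2 change was 1.12, beside 0.19 over all tested features. Of the small-subunit genes 29 of 31 rose and 1 fell, with a median of 1.23, and of the large-subunit genes 44 of 46 rose and 1 fell, with a median of 1.05.

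The largest changes in MHCC-97L were again those of RPL22L1, RPS6, RPL29 and RPL15. RPS6 had 3211 and 3531 FPKM in Flag-OGT cells, against 589.8 and 587 FPKM in controls, a log2 change of 2.51 ± 0.06 (limma, adjusted p = 5e-11). RPL29 had 5298 and 5238 FPKM in Flag-OGT cells, against 963 and 981 FPKM in controls, a log2 change of 2.44 ± 0.05 (limma, adjusted p = 3.6e-11). In both genes the Flag-OGT libraries lay above the controls with no overlap. RPL15 had 1822 and 1839 FPKM in Flag-OGT cells, against 359 and 350.1 FPKM in controls. RPL36, a large-subunit protein, had 3173 and 3096 FPKM in Flag-OGT cells, against 650.4 and 666 FPKM in controls, and RPS15, a small-subunit protein of the head, had 5159 and 4677 FPKM, against 1004 and 1093 FPKM. The log2 changes of RPL15, RPL36 and RPS15 were 2.36, 2.25 and 2.23 (limma, adjusted p = 2.5e-11, 2e-11 and 7e-09).

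The 3 genes that fell in MHCC-97L were RPL39L, RPL30 and RPS27. RPL30 had 1439.7 and 1445 FPKM in Flag-OGT cells, against 2150.4 and 2259 FPKM in controls, and fell by 0.61 ± 0.04 (limma, adjusted p = 3.9e-07). RPS27 had 2885 and 3441 FPKM in Flag-OGT cells, against 4401 and 3988 FPKM in controls, and fell by 0.41 ± 0.12 (limma, adjusted p = 0.0079). The fall of RPS27 in MHCC-97L was no longer called without MHCC-97L Flag-OGT replicate 1 or without MHCC-97L control replicate 1, at -0.28 and -0.34, or after rescaling to the sum of the other genes, at -0.23. RPL10, a large-subunit protein of the transfer RNA sites, had 1116 and 1042 FPKM in Flag-OGT cells, against 1052 and 1085 FPKM in controls. The libraries of RPL10 overlapped there (log2 change 0.01 ± 0.05; limma, adjusted p = 0.81), with values of -0.11, -0.20 and -0.37 under common-sum, median-of-ratios and quantile scaling.

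**Figure D2:**
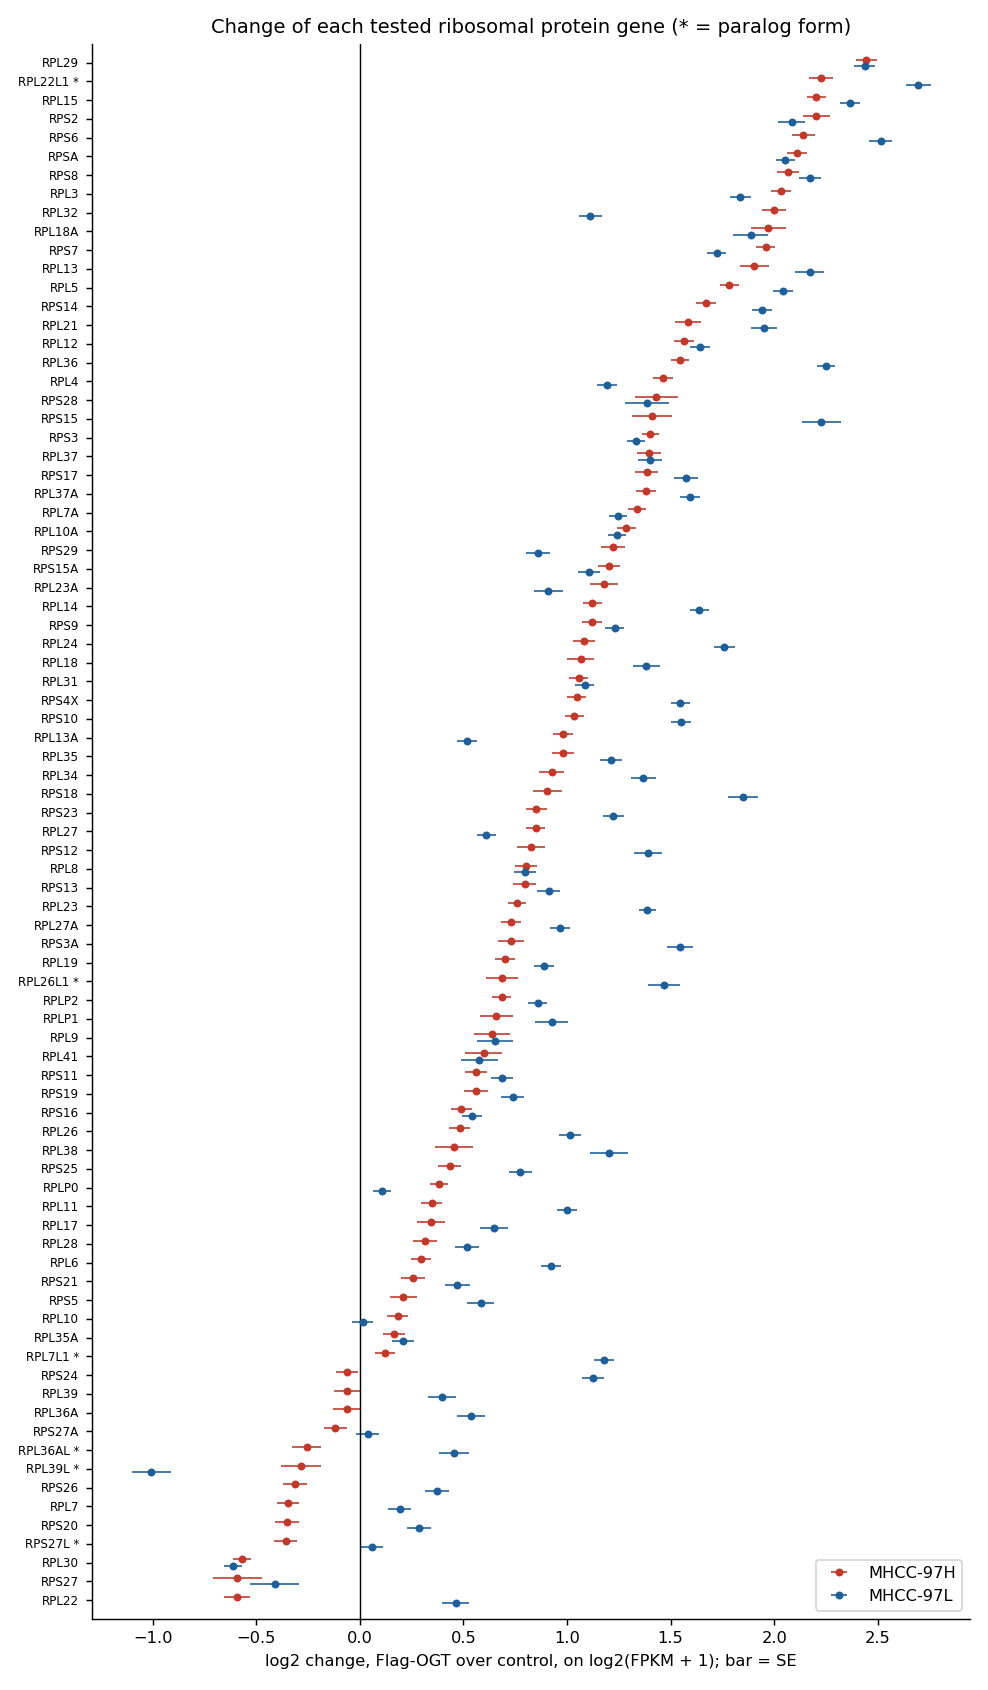
Log2 change (Flag-OGT over control, on log2(FPKM + 1)) of the 83 tested ribosomal protein genes in MHCC-97H (red) and MHCC-97L (blue), ordered by the change in MHCC-97H. Points are estimates from 2 libraries per group, and bars their SE from a spread pooled over all 8 libraries. Genes at the top, such as RPL29 at 2.44 in both lines, lie to the right of 0. RPL30 and RPS27 lie to the left in both lines.

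Seen over both lines, 69 genes rose in each and 3 fell in each, namely RPL30, RPS27 and RPL39L. Of all tested features 40.0% rose in each line and 27.4% fell in each. In 63 genes all 4 Flag-OGT libraries lay above all 4 controls, which held for 36.7% of all tested features. In RPL30 and RPS27 all 4 lay below, as for 25.3% of features. Another 5 genes fell in MHCC-97H and rose in MHCC-97L, namely RPL22, RPS20, RPL7, RPS26 and RPL36AL, as did 3.3% of all tested features. The rise of RPL7 in MHCC-97L, 0.19 on the log2 scale, was -0.02 under median-of-ratios scaling. As a description over the 83 tested members, the log2 changes of the lines had a Spearman's rho of 0.868 and a Pearson's r of 0.866, beside 0.837 and 0.884 over all tested features. The median log2 change of the 47 tested members with a TOP-type start was 0.82 in MHCC-97H and 1.204 in MHCC-97L, and that of the 20 without one was 0.95 and 1.15, with no test of this difference. Those 20 may include genes whose motif lies off the listed base.

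Library scaling shifts all these values together. Median-of-ratios scaling moved the median of all tested features to -0.01 in MHCC-97H and 0.02 in MHCC-97L, and the members' medians to 0.64 and 0.91. In MHCC-97H, 62 members were then higher and 13 lower, beside 41.9% and 42.7% of all tested features. In MHCC-97L, 73 were higher and 6 lower, beside 42.6% and 41.7%. Relative to the median feature the members stood 0.70 higher in MHCC-97H and 0.93 higher in MHCC-97L as deposited. After this scaling they stood 0.65 and 0.90 higher. It divides each library by a single factor, so this gap could hardly change. Quantile normalization can change the gap, and gave 0.70 in MHCC-97H and 0.63 in MHCC-97L. The larger gap in MHCC-97L was thus not kept there.

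Several members play named parts outside the extremes. The stalk proteins RPLP0, RPLP1 and RPLP2, which recruit translation factors, changed by 0.38, 0.66 and 0.68 on the log2 scale in MHCC-97H (limma, adjusted p = 1.4e-05, 2.5e-05 and 2.6e-07). In MHCC-97L the changes of RPLP1 and RPLP2 were 0.93 and 0.86 (limma, adjusted p = 1.8e-06 and 4.8e-08). RPLP0 had 2859 and 2839.8 FPKM in MHCC-97H Flag-OGT cells, against 2175 and 2201 FPKM in controls, and 1958 and 1921 FPKM in MHCC-97L Flag-OGT cells, against 1843 and 1765 FPKM in controls. Its change in MHCC-97L was only 0.10 ± 0.04 (limma, adjusted p = 0.046) and was -0.02, -0.11 and -0.55 under common-sum, median-of-ratios and quantile scaling; in MHCC-97H the quantile value was -0.02. RPL35 had 3349 and 3423 FPKM in MHCC-97H Flag-OGT cells, against 1766 and 1669 FPKM in controls, and 5311 and 5120.2 FPKM in MHCC-97L Flag-OGT cells, against 2171 and 2328 FPKM in controls.

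RPL5 and RPL11, large-subunit proteins that bind the p53 regulator MDM2 when not assembled, were picked for this role after their values were seen. RPL5 had 1174 and 1156 FPKM in MHCC-97H Flag-OGT cells, against 330.2 and 345 FPKM in controls, and 1645 and 1720.4 FPKM in MHCC-97L Flag-OGT cells, against 404 and 411 FPKM in controls. RPL11 had 1086 and 1031 FPKM in MHCC-97H Flag-OGT cells, against 806 and 860.0 FPKM in controls, and 1990.2 and 1988 FPKM in MHCC-97L Flag-OGT cells, against 989 and 1001 FPKM in controls. The log2 changes were thus unequal between the partners, at 1.78 for RPL5 and 0.35 for RPL11 in MHCC-97H and at 2.04 and 1.00 in MHCC-97L (limma, adjusted p = 1.4e-10, 7.9e-05, 6.3e-11 and 2e-08).

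The Flag-OGT change differed between the lines for many members. The signed log2 change was lower in MHCC-97H than in MHCC-97L for 43 of 83 genes and higher for 10 (limma test of the difference, adjusted p under 0.05), against 29.4% and 33.9% of all tested features. With a minimum of 2-fold, 3 were lower and 0 higher, against 3.31% and 9.08%. With quantile normalization the split was 25 lower and 23 higher, beside 36.5% and 30.1% of all tested features. The median difference was then -0.02 for members and -0.07 for all tested features, so the excess of lower members was not kept. The other scalings gave 36 and 12 (common sum), 43 and 11 (common sum of the other genes) and 39 and 10 (median-of-ratios). Of all tested features, 25.8%, 28.9% and 29.2% were lower under them, in this order, and 36.9%, 34.7% and 34.6% higher. Without MHCC-97H Flag-OGT replicate 1, the number higher in MHCC-97H was 6.

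RPS24, a small-subunit protein mutated in Diamond-Blackfan anaemia, differed most. It had 945 and 944 FPKM in MHCC-97H Flag-OGT cells, against 938 and 1034 FPKM in controls, and 2030.2 and 1969 FPKM in MHCC-97L Flag-OGT cells, against 927 and 906 FPKM in controls. In MHCC-97H the groups overlapped (log2 change -0.06 ± 0.05; limma, adjusted p = 0.31), and in MHCC-97L RPS24 rose by 1.12 ± 0.05 (limma, adjusted p = 1.6e-08). The difference was -1.18 ± 0.08 (limma, adjusted p = 1.2e-06). RPL22 rose by 0.46 in MHCC-97L, with 261 and 283 FPKM in Flag-OGT cells, against 199 and 196 FPKM in controls, and its difference was -1.06 ± 0.09 (limma, adjusted p = 8e-06). RPS18, a protein of the small-subunit head, had 2612 and 2529.7 FPKM in MHCC-97H Flag-OGT cells, against 1282 and 1467 FPKM in controls, and 4257 and 4283 FPKM in MHCC-97L Flag-OGT cells, against 1252 and 1121 FPKM in controls. RPS15 had 3081 and 3005 FPKM in MHCC-97H Flag-OGT cells, against 1283 and 1023 FPKM in controls. RPS18 and RPS15 thus rose in both lines, with differences of -0.94 and -0.82 (limma, adjusted p = 3.3e-05 and 0.00054).

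RPL32, a large-subunit protein, went the other way. It had 1203 and 1262 FPKM in MHCC-97H Flag-OGT cells, against 298 and 317 FPKM in controls, and 1947 and 1785 FPKM in MHCC-97L Flag-OGT cells, against 848 and 875 FPKM in controls. Its difference was 0.89 ± 0.08 (limma, adjusted p = 1.2e-05), and its controls already differed between the lines.

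**Figure D3:**
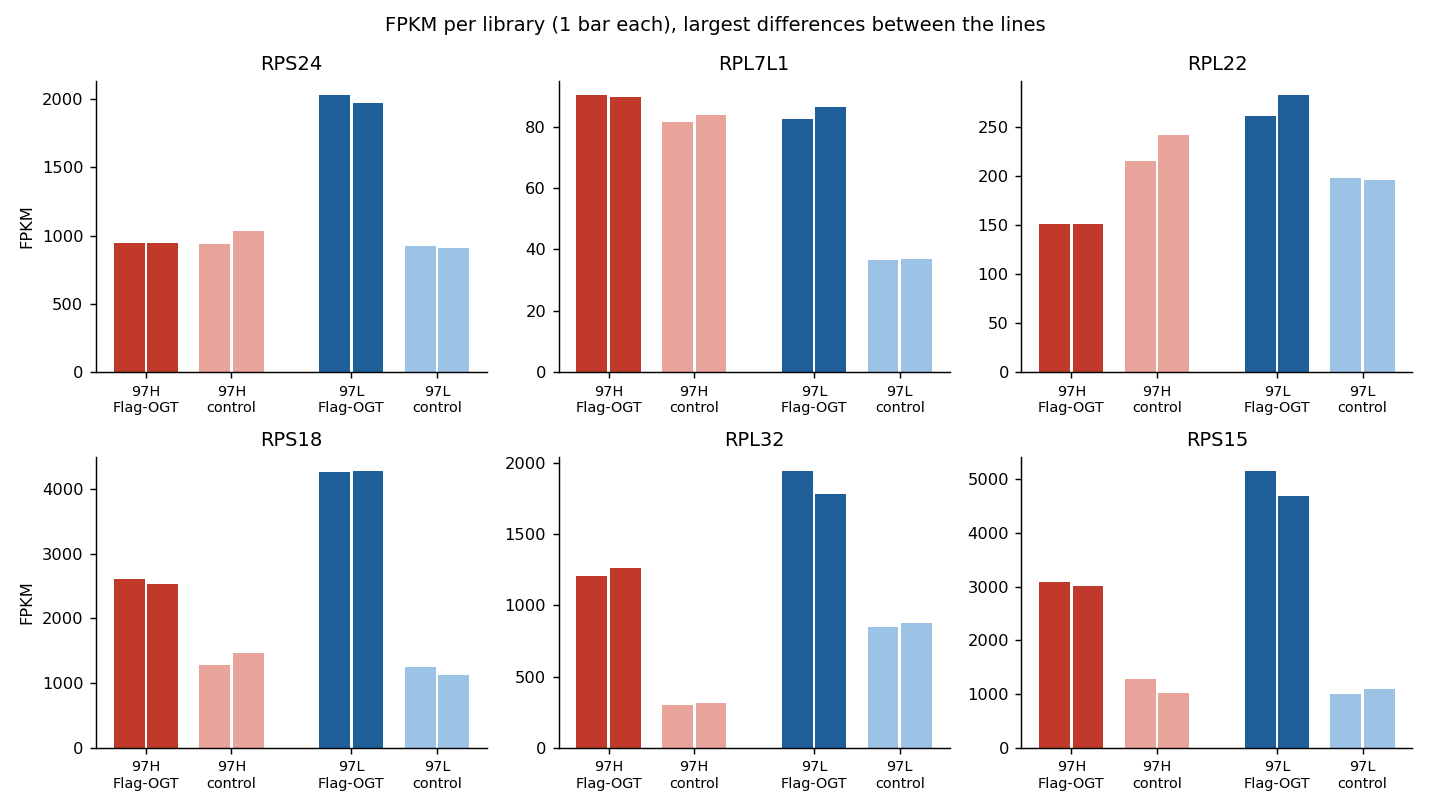
FPKM in each of the 8 libraries (1 bar each, axis from 0) of RPS24, RPL7L1, RPL22, RPS18, RPL32 and RPS15, whose Flag-OGT change differed most between the lines. RPS24 stands at 2030.2 and 1969 FPKM in MHCC-97L Flag-OGT libraries and between 906 and 1034 FPKM in the other 6.

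Between the lines without Flag-OGT, single ribosomal protein genes differed in both directions. As deposited, 53 of 83 were lower in MHCC-97H controls than in MHCC-97L controls and 13 higher (limma, adjusted p under 0.05), against 38.9% and 26.5% of all tested features. With a minimum of 2-fold, 2 were lower and 1 higher, against 5.45% and 2.19%. Other scalings gave another split: 31 lower and 21 higher with a common sum, 31 and 21 with a common sum of the other genes, 25 and 23 with median-of-ratios factors and 30 and 20 with quantile normalization. Of all tested features, 31.2%, 30.7%, 30.3% and 29.2% were lower under these scalings, in this order. Those higher were 34.6%, 33.9%, 36.6% and 33.5%. With median-of-ratios factors the lower members were thus near the share of all features. RPL32 was lowest, with a log2 difference of -1.48 ± 0.06 (limma, adjusted p = 3.5e-08). RPS7, a small-subunit protein that also binds MDM2, had 263 and 275 FPKM in MHCC-97H controls, against 617 and 612 FPKM in MHCC-97L controls, a difference of -1.19 ± 0.05 (limma, adjusted p = 3.5e-08). RPL37 had 185 and 164 FPKM in MHCC-97H controls, against 285 and 293 FPKM in MHCC-97L controls. At the other end, RPL7L1 had 81.7 and 83.9 FPKM in MHCC-97H controls, against 36.7 and 36.8 FPKM in MHCC-97L controls, a difference of 1.15 ± 0.05 (limma, adjusted p = 6.5e-08). RPS10 (1646 and 1546 FPKM, against 1123 and 1119.9 FPKM) and RPL10A (501 and 520.3 FPKM, against 360.3 and 360.5 FPKM) followed, at 0.51 and 0.50 on the log2 scale.

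Between the Flag-OGT groups, 64 of 83 genes were lower in MHCC-97H than in MHCC-97L and 9 higher, against 36.1% and 33.6% of all tested features. With a minimum of 2-fold, 7 were lower and 1 higher, against 3.59% and 4.24%. With a common sum the split was 52 lower and 15 higher, and with quantile normalization 39 lower and 19 higher. RPL36AL, RPS24 and RPL26L1 were lowest, at -1.13, -1.08 and -1.04 on the log2 scale (limma, adjusted p = 7.5e-07, 2.2e-07 and 1.9e-06). RPL39L, RPLP0 and RPL10A were highest, at 1.15, 0.55 and 0.55 (limma, adjusted p = 3.7e-06, 2.8e-06 and 3.6e-06). As deposited, 48 genes were lower in MHCC-97H in both comparisons of the lines and 4 were higher, against 19.1% and 13.6% of all tested features. The 2 comparisons share no library, but they share the scale of the deposited values and the estimate of the spread. The joint count was not made under other scalings. It would be smaller there, as only 31 members were lower in the controls with a common sum and 25 with median-of-ratios factors.

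The paralog forms stood far below their parents, and RPL22L1 changed most against its parent. Its product can stand in for RPL22 in the ribosome, and in mice loss of Rpl22 raises Rpl22l1. Here RPL22 itself fell by 0.59 on the log2 scale in MHCC-97H and rose by 0.46 in MHCC-97L, and a link between them was not tested. RPL22L1 had 50.2 and 51.7 FPKM in MHCC-97H Flag-OGT cells, against 9.78 and 10.4 FPKM in controls, and 69.5 and 73.8 FPKM in MHCC-97L Flag-OGT cells, against 10.1 and 10.3 FPKM in controls. All 4 Flag-OGT libraries lay above all 4 controls, and the log2 changes were 2.23 ± 0.06 and 2.70 ± 0.06 (limma, adjusted p = 1.5e-10 and 4.5e-11). As a percentage of RPL22, RPL22L1 stood at 33.2% and 34.3% in MHCC-97H Flag-OGT cells, against 4.54% and 4.29% in controls, and at 26.6% and 26.1% in MHCC-97L Flag-OGT cells, against 5.10% and 5.25% in controls. On the scale of log2((paralog + 1)/(parent + 1)), the ratio was 2.53 higher over the 4 Flag-OGT than over the 4 control libraries, and 2.82 and 2.23 higher within MHCC-97H and MHCC-97L.

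An exact two-sided permutation test of 4 against 4 libraries gave p = 0.0286 for this ratio, the smallest it can give, and 0.0858 after Benjamini-Hochberg adjustment over 6 pairs. None of the 6 ratios passed an adjusted 0.05, and 2 had an unadjusted p under 0.05, those of RPL22L1 and RPL7L1. A ratio could pass only if most of the 6 pairs reached the smallest p. The test also has no term for the line, so a difference between the lines adds to the spread it uses. A ratio that was not called is therefore no sign of an unchanged ratio. RPL7L1, whose yeast relative is a nucleolar processing factor of the large-subunit precursor, had 90.5 and 89.7 FPKM in MHCC-97H Flag-OGT cells, against 81.7 and 83.9 FPKM in controls, and 82.6 and 86.4 FPKM in MHCC-97L Flag-OGT cells, against 36.7 and 36.8 FPKM in controls. Its ratio to RPL7 was 0.73 higher in Flag-OGT libraries (exact permutation p = 0.0286, adjusted 0.0858), and 0.47 and 0.99 higher within MHCC-97H and MHCC-97L. The rise of RPL7L1 itself in MHCC-97H, 0.12 ± 0.05 (limma, adjusted p = 0.043), was -0.08 under median-of-ratios scaling.

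RPL26L1 had 64.4 and 54.6 FPKM in MHCC-97H Flag-OGT cells, against 37.3 and 35.8 FPKM in controls, and 122 and 124 FPKM in MHCC-97L Flag-OGT cells, against 45.5 and 42.1 FPKM in controls. It rose in both lines, and so did RPL26, so that the ratio was 0.33 higher in Flag-OGT libraries (exact permutation p = 0.171, adjusted 0.24). RPL36AL had 152 and 149 FPKM in MHCC-97H Flag-OGT cells, against 169 and 193 FPKM in controls, and 328 and 333 FPKM in MHCC-97L Flag-OGT cells, against 253 and 228 FPKM in controls. RPL36AL kept to 19.2% to 23.4% of RPL36A over the 8 libraries, with a ratio 0.14 lower in Flag-OGT libraries (exact permutation p = 0.0571, adjusted 0.114). RPL36A overlapped in MHCC-97H, with 794 and 747 FPKM in Flag-OGT cells, against 750.1 and 865 FPKM in controls, and rose by 0.54 in MHCC-97L (limma, adjusted p = 3.4e-05). The fall of RPL36AL in MHCC-97H, 0.26 on the log2 scale, was not called under quantile normalization or after rescaling to the sum of the other genes, at -0.13 and -0.06, and was 0.04 after removing a trend with length and GC content.

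RPL39L, the testis-type paralog of the X-linked RPL39, was the one paralog form that fell in both lines. It had 25.5 and 25.8 FPKM in MHCC-97H Flag-OGT cells, against 32.5 and 30.4 FPKM in controls, and 10.2 and 11.8 FPKM in MHCC-97L Flag-OGT cells, against 20.9 and 25.5 FPKM in controls. The groups did not overlap in either line, and the log2 changes were -0.28 ± 0.09 and -1.01 ± 0.09 (limma, adjusted p = 0.018 and 3.2e-06). The smaller fall was lost when MHCC-97H control replicate 1 or either MHCC-97H Flag-OGT library was left out, with values from -0.29 to -0.24. RPL39 had 1074 and 948 FPKM in MHCC-97H Flag-OGT cells, against 1005 and 1101 FPKM in controls, and 1648 and 1677 FPKM in MHCC-97L Flag-OGT cells, against 1279 and 1247 FPKM in controls. The ratio of RPL39L to RPL39 was 0.81 lower in Flag-OGT libraries (exact permutation p = 0.257, adjusted 0.257), by 0.22 within MHCC-97H and 1.40 within MHCC-97L.

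RPS27L had 30.4 and 30.1 FPKM in MHCC-97H Flag-OGT cells, against 38.4 and 39.6 FPKM in controls, and 51.2 and 55.7 FPKM in MHCC-97L Flag-OGT cells, against 51.5 and 51.2 FPKM in controls. It fell by 0.36 in MHCC-97H (limma, adjusted p = 0.00016) and overlapped in MHCC-97L (adjusted p = 0.37 by limma). Its ratio to RPS27 was 0.35 higher in Flag-OGT libraries (exact permutation p = 0.2, adjusted 0.24). RPL3L was listed at 0 to 0.26 FPKM and RPL10L at 0 to 0.07 FPKM over the 8 libraries, below their parents RPL3 and RPL10 in each.

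**Figure D4:**
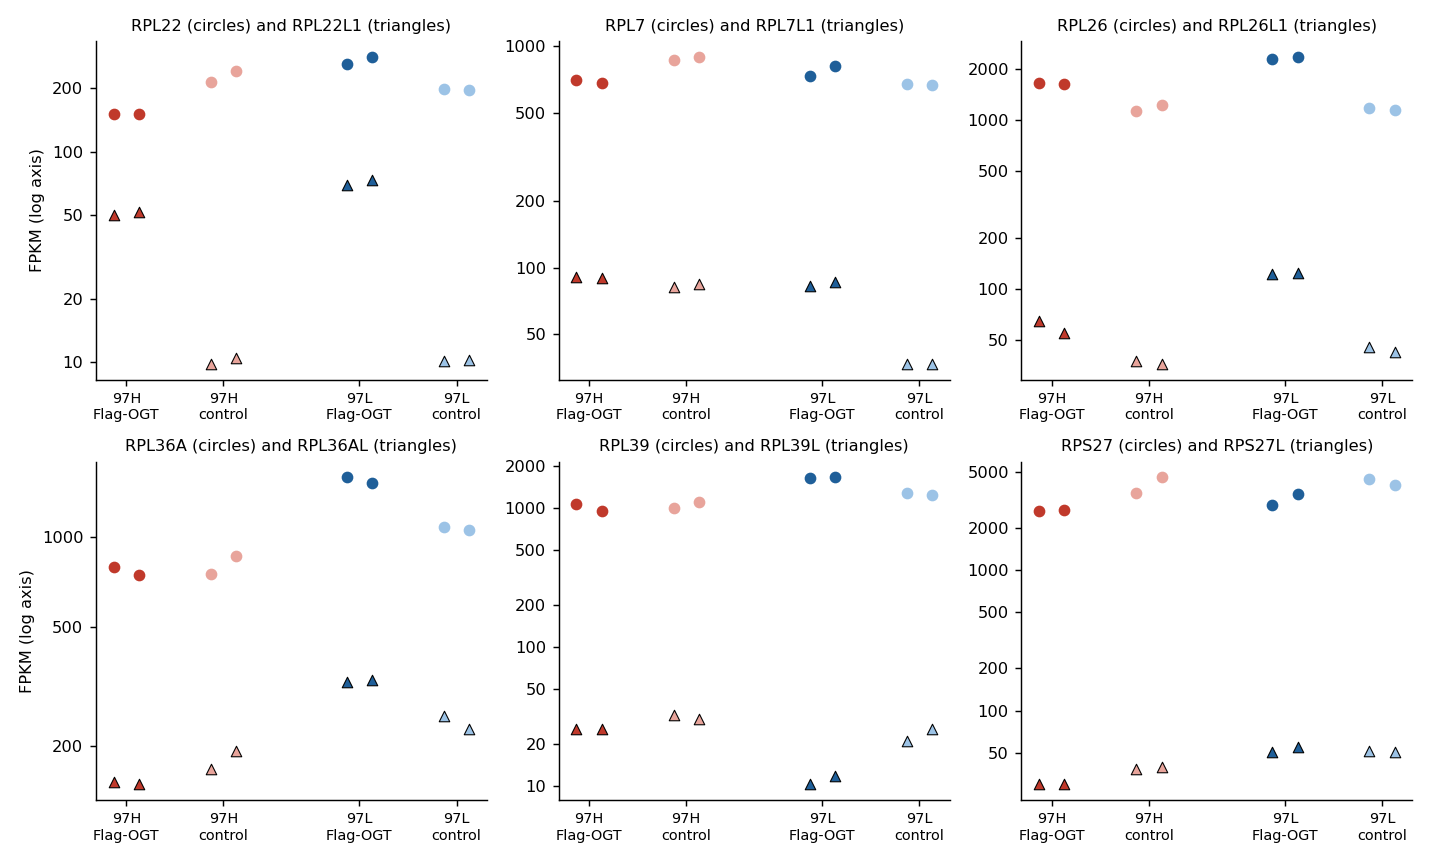
FPKM (log axis) of 6 parent genes (circles) and their paralog forms (triangles) in each of the 8 libraries, by line and Flag-OGT state. RPL22L1 lies at 50.2 to 73.8 FPKM in Flag-OGT libraries and at 9.78 to 10.4 FPKM in controls, while RPL39L is lower in the Flag-OGT libraries of both lines.

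Neighbouring gene lists show how other parts of the translation machinery stood in the same fit. RACK1, a scaffold protein of the small subunit that the symbol rule does not catch, had 4499 and 4515 FPKM in MHCC-97H Flag-OGT cells, against 857 and 864 FPKM in controls, a log2 change of 2.39 ± 0.04 (limma, adjusted p = 1.2e-11). In MHCC-97H, 39 of 78 mitochondrial ribosomal proteins rose and 27 fell (median log2 change 0.12), that is 50% and 34.6%, near the 48.2% and 36.3% of all tested features. In MHCC-97L, 52 rose and 14 fell (median 0.51), that is 66.7% and 17.9%, beside 50.1% and 34.7% of all tested features. The MHCC-97H median turned to -0.07 under median-of-ratios scaling. MRPL37 rose by 1.82 in MHCC-97H and MRPS35 fell by 1.49.

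Ribosome biogenesis factors process ribosomal RNA and assemble the subunits. Of 84 factors, 30 were higher and 40 lower in MHCC-97H (median log2 change -0.17), and 60 higher and 13 lower in MHCC-97L (median 0.51). These are 35.7% and 47.6% in MHCC-97H, beside 48.2% and 36.3% of all tested features, and 71.4% and 15.5% in MHCC-97L, beside 50.1% and 34.7%. The MHCC-97H median was 0.01 when libraries were rescaled to the sum of the other genes, with 37 higher and 28 lower. The difference between the lines was called for 71 factors, with 68 lower in MHCC-97H (81.0%, beside 29.4% of all tested features) and 3 higher (3.57%, beside 33.9%). TCOF1, a nucleolar factor of ribosomal RNA transcription, rose by 1.48 and 1.77 in MHCC-97H and MHCC-97L, and LSG1, a release factor of the late large subunit, fell by 1.35 and 1.31. Of 15 genes of RNA polymerase I and its factors, 8 were higher and 4 lower in MHCC-97H, and 12 higher and 1 lower in MHCC-97L. The subunit POLR1D rose by 2.02 and 1.77. Among 13 ribosomal protein chaperones, 4 were higher and 8 lower in MHCC-97H, and 8 higher and 3 lower in MHCC-97L, with the importin IPO5 at 1.84 and 1.95.

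The counts of the next lists stand beside 48.2% higher and 36.3% lower of all tested features in MHCC-97H, and 50.1% and 34.7% in MHCC-97L. Of 14 elongation factors, 6 were higher and 6 lower in MHCC-97H, and 10 higher and 4 lower in MHCC-97L. EEF1G rose by 1.77 and 1.49, and EEF1A2, the muscle and neuron form of the elongation factor that carries transfer RNA, fell by 1.62 and 2.79. Of 39 initiation factors, 18 were higher and 18 lower in MHCC-97H, and 17 higher and 10 lower in MHCC-97L. That is 46.2% in either direction in MHCC-97H, and 43.6% higher and 25.6% lower in MHCC-97L. EIF3L rose by 2.21 and 1.95, and EIF6, which keeps the large subunit from joining, fell by 1.77 and 1.02. Among 16 tested regulators of mTOR and MYC, 12 were higher and 2 lower in MHCC-97H, and 9 higher and 4 lower in MHCC-97L. EIF4EBP1, the translation repressor that mTOR phosphorylates, had 548 and 532 FPKM in MHCC-97H Flag-OGT cells, against 116 and 101 FPKM in controls, and rose by 2.30 and 1.52 in the 2 lines. MYC, a transcription factor of ribosomal genes, had 102 and 103 FPKM in MHCC-97H Flag-OGT cells, against 36.4 and 35.1 FPKM in controls, and 21.5 and 20.04 FPKM in MHCC-97L Flag-OGT cells, against 28.6 and 29.6 FPKM in controls. MYC thus rose by 1.49 ± 0.06 in MHCC-97H and fell by 0.47 ± 0.06 in MHCC-97L (limma, adjusted p = 2.1e-09 and 2.1e-05), a difference of 1.96 ± 0.08 (limma, adjusted p = 8e-08).

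**Figure D5:**
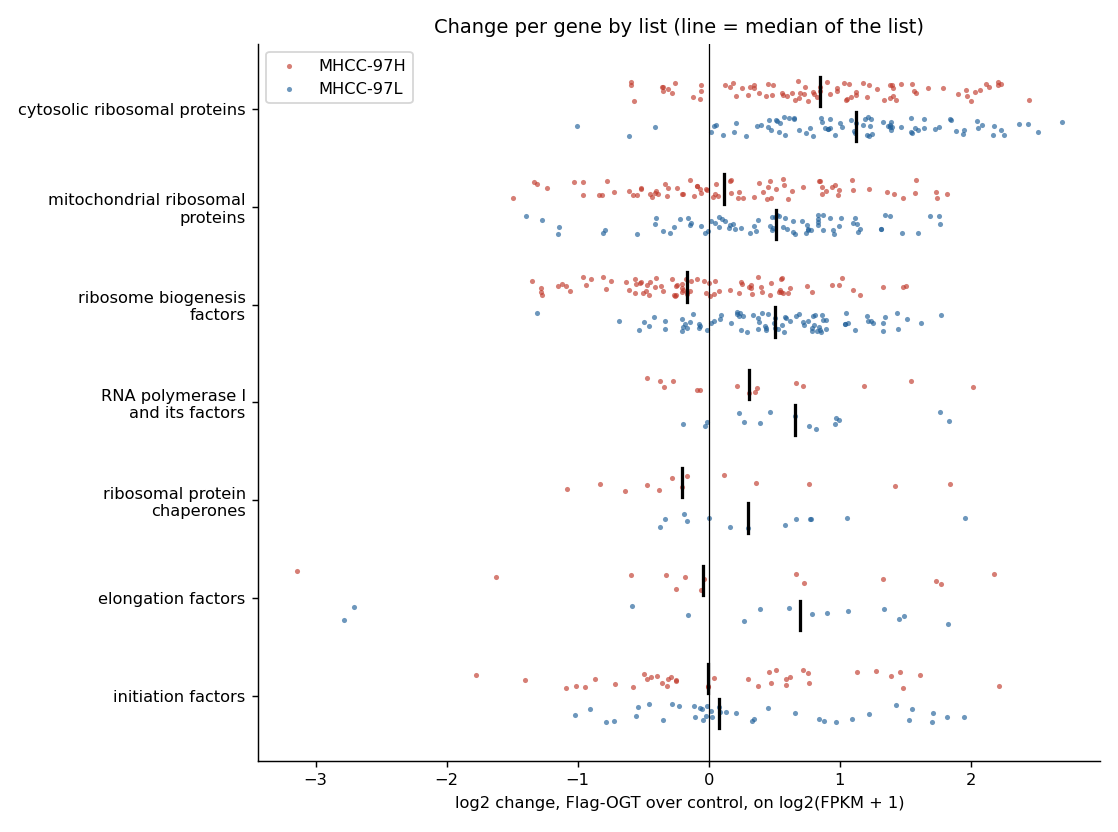
Log2 change (Flag-OGT over control, on log2(FPKM + 1)) of single genes in 7 lists, MHCC-97H in red above MHCC-97L in blue, 1 point per gene and a line at the list's median. The medians of the ribosomal proteins stand at 0.85 and 1.12, and those of RNA polymerase I and its factors at 0.31 and 0.66.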

How the data were processed

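RNA was measured in 8 libraries, 2 in each of 4 groups, grouped by their titles. Total RNA was taken up in Trizol and prepared with a SMARTer kit, per the labels' protocols. The authors deposited gene-level FPKM values, 1 column per library. The submitters' processing notes name hg19, DESeq2 1.18.1, RSEM 1.2.4, Bowtie2 and HISAT2 2.1.0; the sources used here do not say which made these values. The read depth is unknown, so no counting interval is given.

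Of 18928 features, 26 with symbols turned into dates were left out. Features with a mean FPKM of at least 0.5, 13553 in number, were fitted as log2(FPKM + 1) by limma 3.58.1 under R 4.3.3 (4 group means, trended eBayes variances, 4 residual degrees of freedom). Fold changes on this scale understate those of low genes. Benjamini-Hochberg adjustment ran over all features of a comparison, with calls under 0.05. The procedure was tested on simulated data for Flag-OGT against control in MHCC-97H, with 50 changed genes at each of 4 sizes. All were recovered, and 16 of 216 calls were false. Far fewer genes changed there than were called in these data, so the simulation does not give the error rate of the calls above. Ratios of paralogs to parents were tested by exact permutation over 70 regroupings. Figures come from matplotlib 3.10.9, and tables from scipy 1.17.1, numpy 2.4.6 and pandas 2.3.3 under Python 3.11.15. Start windows came from RefSeq, and transcript length, GC content and pseudogenes from GENCODE release 29; their build differs from that of the FPKM table, and they were joined by symbol only.

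The members, the lists and the tests were chosen with earlier results of these data known. Named for each Flag-OGT comparison were the 6 highest and 6 lowest members whose libraries did not overlap, members called against the majority and paralog forms with their parents. Also named were the 6 largest differences between lines, the 3 highest and 3 lowest members in each comparison of lines, the 3 members with the highest mean, those under 0.5 FPKM, RPSA and the stalk proteins, and up to 2 called genes at either end of a neighbouring list; some of these list genes, and 1 short list as a whole, are not reported here. Alternatives were another pseudocount, other filters, 4 other scalings, no trend, a 2-fold minimum, a fit of the compared groups only, leaving out single libraries and a replicate block. Removal of a length and GC trend was added after seeing the data.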

Additional observations from a re-analysis of the deposited data

Results flagged for a closer look

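The 25 members below were singled out because their Flag-OGT change differed between the lines by the limma test of the difference (Benjamini-Hochberg adjusted p under 0.05), among the members that the naming rule takes. Values are the log2 change in MHCC-97H minus that in MHCC-97L. RPS24 was at -1.18, RPL7L1 at -1.06, RPL22 at -1.06, RPS18 at -0.94 and RPS15 at -0.82. Next came RPL26L1 at -0.78, RPL36AL at -0.71, RPL36 at -0.70, RPS26 at -0.68 and RPS20 at -0.64. RPL36A was at -0.60, RPL7 at -0.54, RPL26 at -0.53, RPS10 at -0.52 and RPL22L1 at -0.47. RPL39 was at -0.46, RPS27L at -0.41, RPS6 at -0.37, RPL35 at -0.23 and RPLP2 at -0.17. The 5 with a higher signed change in MHCC-97H were RPL32 at 0.89, RPL39L at 0.72, RPLP0 at 0.28, RPS7 at 0.24 and RPL3 at 0.20. The opposite calls of RPL22, RPS20, RPL7, RPS26 and RPL36AL in the 2 lines are among these. What moves with these differences was not tested.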

How the results depend on the processing

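The majority of higher members in both lines was kept under every alternative tried, with 62 to 74 of 83 higher in MHCC-97H and 66 to 80 in MHCC-97L (2-fold minimum aside). For each value given next that moved or turned, the cause was not tested, unless a stricter call or fewer samples made it. With a minimum of 2-fold, 36 rose and 0 fell in MHCC-97H, 46 rose and 1 fell in MHCC-97L, 0 and 3 were called higher and lower for the difference between lines, 1 and 2 for the control lines, and 1 and 7 for the Flag-OGT lines. Lower members in MHCC-97L numbered 6 (median-of-ratios) and 9 (quantile scaling), beside 41.7% and 35.4% of all tested features. For the difference, higher members numbered 17 after removing a length and GC trend and 23 with quantile scaling, and lower members 25 with quantile scaling. MHCC-97H against MHCC-97L controls gave 21 higher and 31 lower with a common sum and likewise with a common sum of the other genes, 23 and 25 under median-of-ratios, and 20 and 30 under quantile scaling. The shares of all tested features under these scalings stand with that comparison above. The Flag-OGT lines gave 15 higher with both common sums and with median-of-ratios, 14 after trend removal, and 19 higher and 39 lower with quantile scaling. Over features at 0.5 FPKM or more, the members' share was 31.3% and 15.1% in MHCC-97L Flag-OGT and control cells.

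Leaving out each library gave 66 to 70 higher and 8 to 11 lower in MHCC-97H, 75 to 77 and 2 to 3 in MHCC-97L, 6 to 11 and 34 to 45 for the difference, 9 to 15 and 42 to 52 for the control lines, and 6 to 11 and 58 to 68 for the Flag-OGT lines. The lone library of a group was then assumed to vary like the others. Ratio differences ran from 2.46 to 2.59 for RPL22L1, 0.60 to 0.86 for RPL7L1, 0.24 to 0.46 for RPL26L1, -0.17 to -0.11 for RPL36AL, -1.16 to -0.47 for RPL39L and 0.23 to 0.45 for RPS27L.

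No label says whether same-numbered libraries share more than a number. Their deviations correlated at -0.21 to 0.31 between groups, which does not settle it. With a replicate block, 69 rose and 9 fell in MHCC-97H, 76 and 3 in MHCC-97L, 9 and 42 were called for the difference, 13 and 52 for the control lines and 9 and 64 for the Flag-OGT lines.

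Of 1343 alternatives over 71 gene results, 27 turned sign. In MHCC-97H, log2 changes after rescaling to the other genes and after trend removal were 0.13 and 0.17 for RPL36A and 0.13 and 0.23 for RPL39, and RPL36AL was at 0.041 after trend removal. Median-of-ratios gave RPL7L1 -0.082 and RPL10 -0.022, and quantile scaling RPL10 -0.045 and RPLP0 -0.017. In MHCC-97L, common-sum and median-of-ratios values were -0.082 and -0.17 for RPS27A, -0.015 and -0.11 for RPLP0, -0.061 and -0.15 for RPS27L, and -0.11 and -0.20 for RPL10. Median-of-ratios gave RPL7 -0.019, and quantile scaling RPLP0 -0.55, RPL39 -0.17 and RPL10 -0.37. Without single libraries, RPL36A ran from -0.17 to 0.039 and RPL39 from -0.15 to 0.029 in MHCC-97H, and RPS27L from -0.003 to 0.115 and RPL10 from -0.036 to 0.063 in MHCC-97L. Unknown read depth limits what can be said of RPL3L and RPL10L.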
